A study of Mus musculus with 6 samples.

Results

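The JAK kinases and STAT factors are the enzymes and transcription factors that carry the signal of cytokine receptors into the nucleus. Here 9 of their genes, Jak1, Jak2, Jak3, Stat2, Stat3, Stat4, Stat5a, Stat5b and Stat6, were compared between macrophages that CSF1 (M-CSF) and macrophages that CSF2 (GM-CSF) induced from mouse bone marrow. They were taken by gene symbol, as 9 of the 21335 symbols that the platform annotation gives to the array, and other genes of these families were not analysed here. Of the 9, 8 had 1 probe set of their own, and Jak3 shared its only probe set with Insl3.

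Marrow of C57BL/6 mice was cultured for 7 days, in the M(CSF1) group with CSF1 and in the M(CSF2) group with CSF2. The cells were sorted, with no marker named in the sources used here, and their RNA was hybridised to Affymetrix Mouse Gene 1.0 ST arrays, 3 per group. The labels call the 3 samples of a group biological replicates but do not say whether they came from separate mice, and p-values here rest on the spread among these 3, which may be technical in part. Of 8 macrophage markers, 0 lay at or below the level of olfactory receptor genes described further on, 3 were higher in M(CSF2) and 3 lower (median difference -0.29 on the log2 scale). The lysozyme gene Lyz2 gave means of 12.43 in M(CSF1) and 11.95 in M(CSF2) and the surface receptor gene Adgre1 11.88 and 10.70. Fcgr1, an Fc receptor gene, was lower as well (9.14 and 7.91), and Csf1r, Cd68 and Cd14 were higher, Cd14 at 10.16 and 11.87. The part of these shifts in the differences of the members was not tested.

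A cytokine receptor of this class has no kinase of its own. Its chains hold JAK kinases, which activate each other when the ligand brings the chains together and then phosphorylate STAT proteins, which pair and move to the nucleus. The CSF2 receptor works in this way, mainly through JAK2 and STAT5, whereas the CSF1 receptor is itself a tyrosine kinase. The arrays measured transcripts only, and neither the amount nor the phosphorylation of the proteins.

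M(CSF2) cells had more transcript of Jak2, Stat5a, Stat6 and, by a smaller and less stable margin, Stat5b. Jak2 was 2.27-fold higher, Stat5a 2.16-fold, Stat6 1.51-fold and Stat5b 1.34-fold. Jak1, Stat2, Stat3 and Stat4 did not pass the test, and the probe set shared by Jak3 and Insl3 was lower in M(CSF2). The threshold was an adjusted p of 0.05 in limma over all 19938 genes with a probe set of their own. Of the 8 members so tested, 4 were called higher and 0 lower, where over all genes 11.9% were called higher, 15.6% lower and 27.5% in either direction. All of the 8 but Stat4 lay above the median signal of all genes, 4.22. A fit of only the 9969 genes at or above that median called 2183 higher and 3094 lower. The shares over all genes are thus not those of genes as bright as most members. The median difference of the 8 was 0.28 on the log2 scale, beside 0.04 for all genes. RNA was taken from whole cell populations, so more cells with a transcript and more transcript per cell cannot be told apart.

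**Figure D1:**
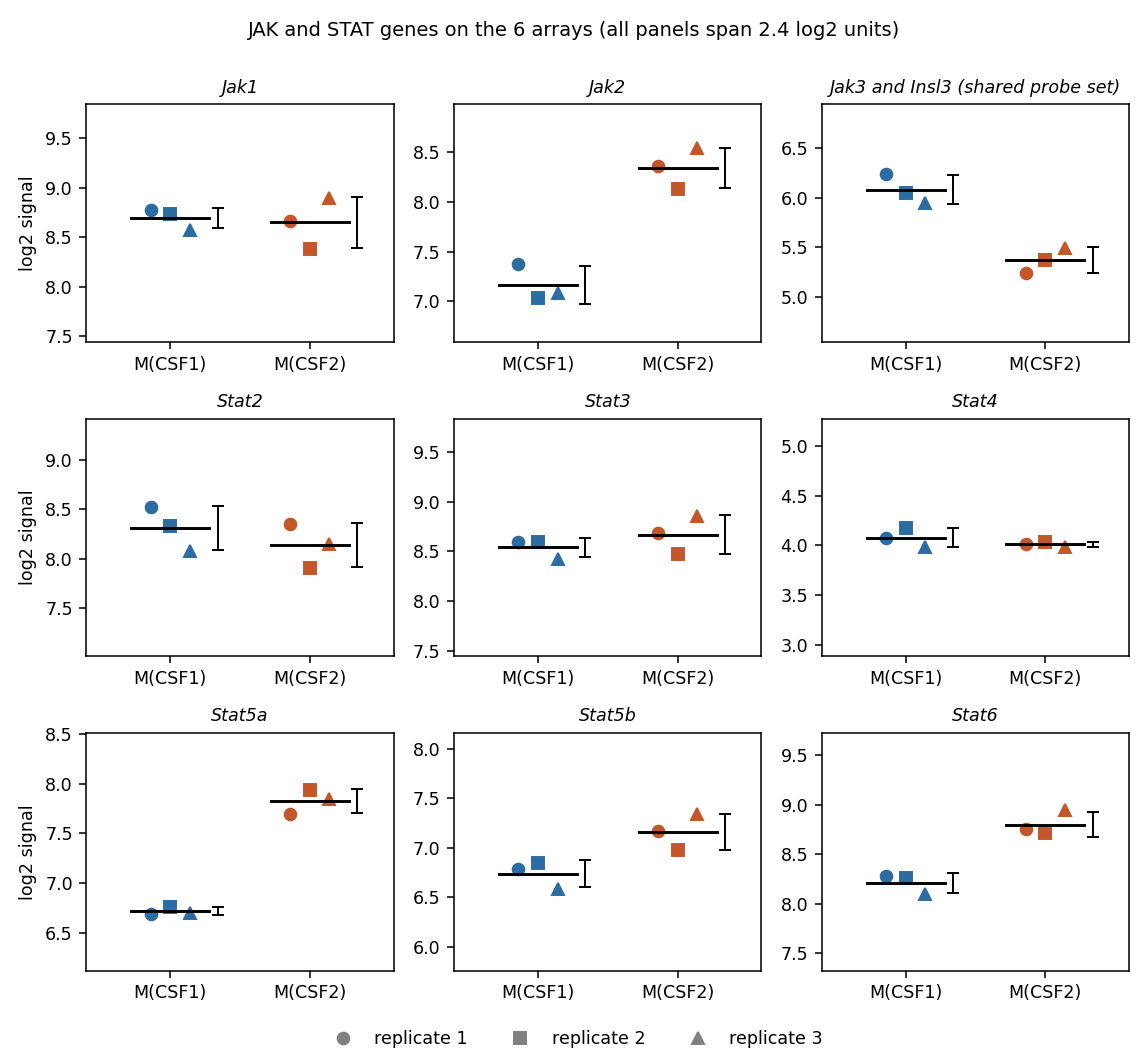
Log2 signal (vertical axis, the same span in each panel) of the 9 genes on the 3 M(CSF1) and 3 M(CSF2) arrays. Symbols stand for replicate numbers, horizontal lines for group means and bars for 1 SD. The groups lie apart for Jak2, Stat5a, Stat5b, Stat6 and the probe set of Jak3 and Insl3, with the narrowest gap, 0.12, for Stat5b.

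Among the kinases, Jak2, which is bound by the common beta chain of the CSF2 receptor, gave log2 signals of 7.37, 7.03 and 7.08 on the M(CSF1) arrays and 8.36, 8.13 and 8.54 on the M(CSF2) arrays. The lowest M(CSF2) array lay 0.76 above the highest M(CSF1) array. The difference was 1.18 on the log2 scale (SE 0.13, 95% interval 0.88 to 1.49, limma adjusted p = 0.000351), a 2.27-fold ratio of signals with limits of 1.84 and 2.81. Of all genes tested, 6.17% had a larger difference in either direction. Jak2 was the member with the largest called rise. Over the 6 arrays, the called genes with the most similar profile were Samd8, Scarb2 and Inf2, whose values, centred per gene, differed from those of Jak2 by a root mean square of 0.049, 0.052 and 0.062 log2 units.

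The 300 bases around the annotated start of Jak2, 250 before and 50 after it, are given here because this gene rose most. They come from RefSeq on mouse build GRCm38.p6, chr19:29251553-29251852, plus strand, and hold no match to the motifs searched, so all letters are in lower case.
Jak2: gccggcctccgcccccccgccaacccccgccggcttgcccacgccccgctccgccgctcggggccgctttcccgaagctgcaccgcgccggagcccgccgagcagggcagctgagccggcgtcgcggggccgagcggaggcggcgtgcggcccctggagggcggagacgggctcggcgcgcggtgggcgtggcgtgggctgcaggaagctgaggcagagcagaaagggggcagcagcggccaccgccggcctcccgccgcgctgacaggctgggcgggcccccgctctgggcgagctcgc

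Jak1 works beside other JAKs on the receptors for interferons, for the IL-6 family and for the common gamma chain. It was measured at 8.77, 8.73 and 8.57 in M(CSF1) and 8.66, 8.38 and 8.90 in M(CSF2). The M(CSF2) arrays reached both below and above the M(CSF1) arrays. The difference of -0.04 (95% interval -0.35 to 0.27, limma adjusted p = 0.857) did not pass the test, and its sign was positive after quantile normalization (0.03) and without M(CSF2) replicate 2 (0.09). The interval leaves room for a ratio between 0.78 and 1.21.

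Jak3 encodes the kinase that sits on the common gamma chain and is known mainly from lymphocytes. In the RefSeq annotation of GRCm38.p6 the gene Insl3, which encodes a hormone of Leydig cells in the testis, lies on the same strand within the span of Jak3, and the array has no probe set for either gene alone. The shared probe set gave 6.24, 6.05 and 5.94 in M(CSF1) and 5.24, 5.37 and 5.49 in M(CSF2). All M(CSF2) arrays lay below all M(CSF1) arrays, with a gap of 0.44. The difference of -0.71 (SE 0.10, 95% interval -0.95 to -0.47) passed limma over all 28941 probe sets, shared and unnamed ones included (adjusted p = 0.00205), where 24.7% were called in either direction and 14.4% lower. The signal cannot be divided between Jak3 and Insl3.

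**Figure D2:**
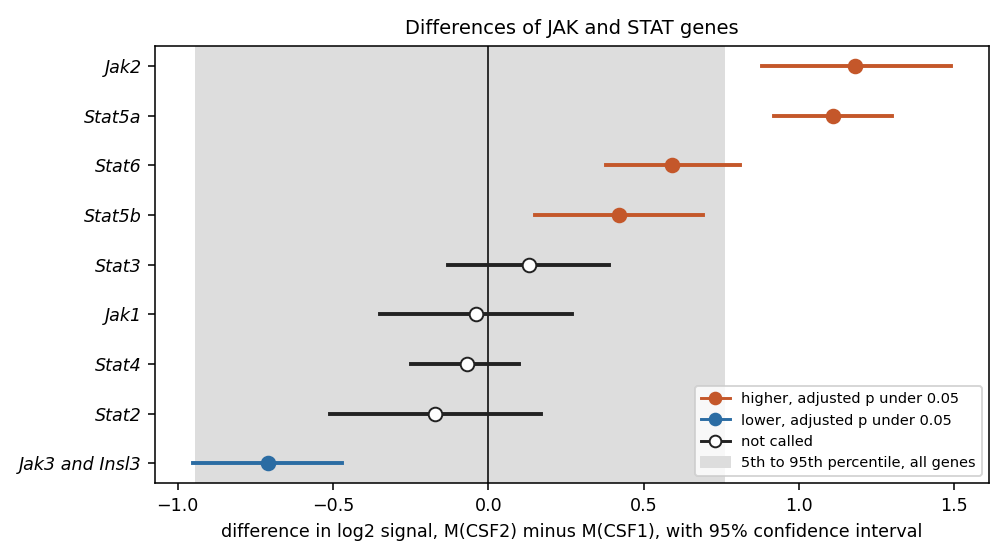
Difference in log2 signal, M(CSF2) minus M(CSF1), with its 95% confidence interval (horizontal axis) for each member. The grey band spans the 5th to the 95th percentile of all genes tested, -0.94 to 0.76. Jak2 and Stat5a lie to the right of the band, and Stat6 and Stat5b lie within it.

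Stat5a and Stat5b encode the STAT proteins that act downstream of CSF2, IL-3 and many other cytokines. They are closely related copies and, with Stat3, direct neighbours on chromosome 11, with no other annotated gene between Stat5b and Stat5a or between Stat5a and Stat3. Stat5a gave 6.69, 6.76 and 6.70 in M(CSF1) and 7.70, 7.94 and 7.85 in M(CSF2). Its M(CSF1) arrays spanned only 0.07 log2 units, and the groups lay 0.94 apart. The difference was 1.11 (SE 0.08, 95% interval 0.92 to 1.30, limma adjusted p = 3.89e-05), a 2.16-fold ratio with limits of 1.90 and 2.47. Of all genes, 6.73% had a larger difference.

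Stat5b gave 6.79, 6.85 and 6.58 in M(CSF1) and 7.17, 6.98 and 7.34 in M(CSF2). The groups did not overlap, and the highest M(CSF1) array lay 0.12 below the lowest M(CSF2) array. Non-overlapping groups were found for 38.9% of all genes. The difference was 0.42 (SE 0.11, 95% interval 0.15 to 0.69, limma adjusted p = 0.0295), a 1.34-fold ratio. The call ended when any 1 array other than M(CSF2) replicate 2 was left out, at differences of 0.33 to 0.48 and adjusted p from 0.0561 to 0.101. It ended too after centring on array medians (0.38, adjusted p = 0.0602) and with the replicate number as a block (adjusted p = 0.0603), and it held without M(CSF2) replicate 2 (0.51, adjusted p = 0.0211).

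The difference of Stat5a exceeded that of Stat5b by 0.69 on the log2 scale. Within each array, Stat5a minus Stat5b was -0.10, -0.10 and 0.12 in M(CSF1) and 0.53, 0.96 and 0.51 in M(CSF2). These values did not overlap between the groups, and an exact 2-sided permutation test gave p = 0.1, the smallest that 3 arrays against 3 allow. Leaving out 1 array at a time moved the value between 0.55 and 0.77. This permutation test then gave p = 0.2 each time, the smallest possible with 1 array fewer. Copies this similar can share probe signal, and the probe sequences were not used here, so part of the Stat5b signal may come from Stat5a transcripts or the reverse, which was not tested.

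The windows of the same size at the second annotated start of each gene are printed because they hold the longest run of letters shared by any windows of different members, 16 bases, marked in capitals. The other 3 pairs of a Stat5a and a Stat5b window shared at most 8, 9 and 11 bases in a row, 8 of them at the first starts, and the next longest run among all 63 pairs of windows from different members had 12. RefSeq on GRCm38.p6 places the Stat5a window at chr11:100860234-100860533, plus strand, and the Stat5b window at chr11:100822521-100822820, minus strand, and each is written 5′ to 3′ along its gene.
Stat5a: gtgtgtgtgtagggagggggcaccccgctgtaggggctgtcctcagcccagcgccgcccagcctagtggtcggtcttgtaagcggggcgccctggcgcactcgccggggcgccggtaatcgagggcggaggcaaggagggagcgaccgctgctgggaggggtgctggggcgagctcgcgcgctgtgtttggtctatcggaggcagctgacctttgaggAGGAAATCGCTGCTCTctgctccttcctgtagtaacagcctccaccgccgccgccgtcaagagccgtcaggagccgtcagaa
Stat5b: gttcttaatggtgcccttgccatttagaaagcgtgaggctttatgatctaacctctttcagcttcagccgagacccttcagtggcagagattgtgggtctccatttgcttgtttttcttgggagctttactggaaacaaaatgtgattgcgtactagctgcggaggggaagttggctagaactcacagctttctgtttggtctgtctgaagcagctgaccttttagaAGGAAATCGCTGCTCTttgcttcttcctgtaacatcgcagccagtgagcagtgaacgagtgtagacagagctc

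Stat3, next to Stat5a on the chromosome, encodes the factor used by the IL-6 family and by IL-10. It was measured at 8.60, 8.59 and 8.42 in M(CSF1) and 8.69, 8.47 and 8.86 in M(CSF2). The groups overlapped, and the difference of 0.13 (95% interval -0.13 to 0.39, limma adjusted p = 0.443) did not pass the test. Over the alternatives it lay between 0.04 and 0.24.

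Stat6 encodes the factor that answers IL-4 and IL-13. It gave 8.28, 8.26 and 8.10 in M(CSF1) and 8.75, 8.71 and 8.95 in M(CSF2), and each M(CSF2) array lay above each M(CSF1) array, by at least 0.43. The difference was 0.59 (SE 0.09, 95% interval 0.38 to 0.81, limma adjusted p = 0.0021), a 1.51-fold ratio with limits of 1.30 and 1.75. It stayed called in all 6 fits with an array left out and in every other alternative run, at differences between 0.52 and 0.67.

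Stat2 encodes the partner that joins IRF9 in the complex through which type I interferons switch on their genes. It was measured at 8.52, 8.33 and 8.08 in M(CSF1) and 8.35, 7.91 and 8.15 in M(CSF2). M(CSF1) spanned 0.45 log2 units and M(CSF2) 0.44, more than the difference of -0.17 between their means (95% interval -0.51 to 0.17, limma adjusted p = 0.457). Irf9 gave 0.25 (adjusted p = 0.125).

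The start of Stat2 is printed because its window held matches to 2 of the 3 motifs searched in the members, marked in capitals. The motifs were the STAT site GAS (TTCNNNGAA, where N is any base), its variant known for STAT6, in which 4 bases part TTC from GAA, and a short form of the interferon response element, TTTC, any 2 bases and TTTC. Both strands were read, and the first 2 motifs read alike on both. In Stat2 the interferon element, tttcagtttc, began 222 bases before the start and the longer-spacer site, ttccctagaa, 210 bases before it, without overlap. RefSeq on GRCm38.p6 places the window at chr10:128270248-128270547, plus strand.
Stat2: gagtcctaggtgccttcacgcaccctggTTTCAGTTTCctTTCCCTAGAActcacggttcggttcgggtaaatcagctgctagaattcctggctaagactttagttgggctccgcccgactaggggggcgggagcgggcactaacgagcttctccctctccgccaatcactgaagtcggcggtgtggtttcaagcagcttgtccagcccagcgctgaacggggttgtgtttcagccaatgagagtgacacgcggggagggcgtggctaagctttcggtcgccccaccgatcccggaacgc

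Over the 12 windows of the 9 members, the interferon element was also found in 1 of the Stat4 windows, on the opposite strand, the longer-spacer site in no other, and GAS in 0 of 12. Among all 32851 windows of this length, the interferon element occurred in 3.44%, the longer-spacer site in 6.95% and GAS in 8.3%. A match describes the letters of the window and shows no binding, and a missing match says only that these letters are not in it.

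Stat4 encodes the factor that answers IL-12 and is known mainly from T and NK cells. It was the dimmest probe set of the members, at 4.08, 4.18 and 3.98 in M(CSF1) and 4.01, 4.03 and 3.98 in M(CSF2). The groups overlapped, and the difference of -0.07 (95% interval -0.25 to 0.10, limma adjusted p = 0.536) did not pass the test. As a scale for dim signals, the 95th percentile of the means of 1027 olfactory receptor genes, which macrophages are not known for, lay at 3.36, and all 8 members tested were above it on every array. A dim signal near such a level can understate a ratio of transcripts.

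Within a group, the same array was often the lowest for several members. M(CSF1) replicate 3 was the lowest of its group for 6 of the 8 members tested, namely Jak1, Stat2, Stat3, Stat4, Stat5b and Stat6. Among the 9969 genes at or above the median signal it was the lowest for 59.1%. M(CSF2) replicate 2 was the lowest of its group for 6 members, Jak1, Jak2, Stat2, Stat3, Stat5b and Stat6, and for 43.9% of those genes. Stat4 and Stat5a went the other way, with their highest M(CSF2) values on replicate 2. The arrays had nearly equal means, 4.63 on the log2 scale, and medians between 3.91 and 4.00. Arrays of 1 group correlated at 0.995 to 0.997 over all probe sets and arrays of different groups at 0.954 to 0.959.

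**Figure D3:**
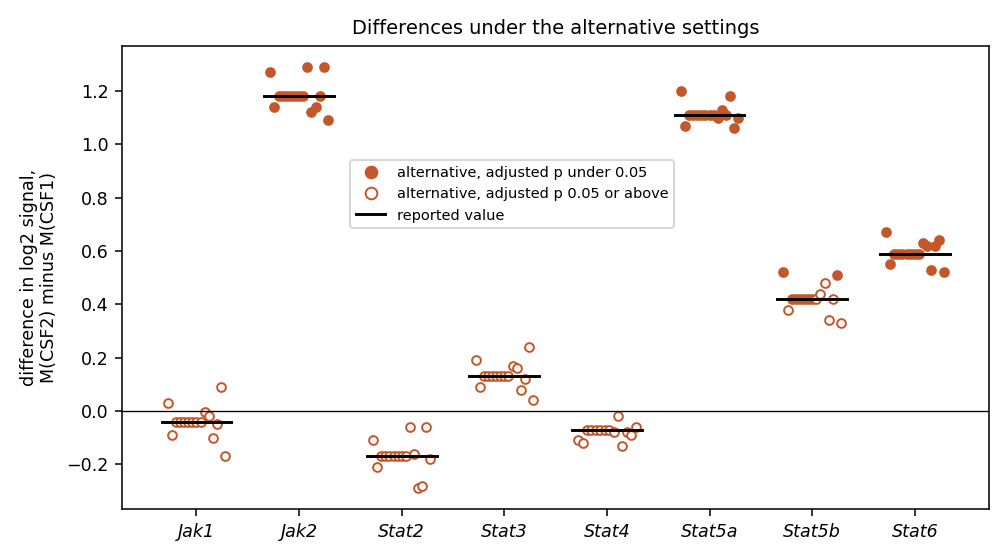
Difference in log2 signal (vertical axis) of the 8 members tested, under each alternative setting (points) and as reported (lines). Filled points have an adjusted p under 0.05. Jak2, Stat5a and Stat6 stay filled throughout, and Stat5b changes sides.

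Around the members, the genes of the pathway were read by role, as counts beside the 27.5% of all genes called. That share includes dim genes, and among the 9969 genes at or above the median signal 5277 were called. Of 28 ligands measured, 10 rose and 2 fell (median 0.20). The cytokine Il6, which signals through JAK1 and STAT3, went from 4.04 ± 0.35 to 9.10 ± 0.42 (SD, n = 3 arrays each). The neutrophil growth factor Csf3 rose by 4.37, from an M(CSF1) mean of 3.64, near the olfactory receptor level. Il10 fell by 1.77 and Ebi3, a subunit of IL-27, fell by 0.87. Of the ligands that lead to STAT6, Il13 rose from 3.73 to 5.07 (limma adjusted p = 0.000633), and Il4, like Ifng, was among 13 ligands at or below the olfactory receptor level on all 6 arrays.

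Of the 5 chains of the common beta family, in which the beta chain binds JAK2, 3 rose and 0 fell (median 1.25). Csf2ra gave 8.96 in M(CSF1) and 10.21 in M(CSF2), Csf2rb 8.31 and 11.93, and Csf2rb2, a near-identical copy of it whose probes may share signal, 6.82 and 11.03. Csf1r, the receptor kinase for CSF1, gave 9.81 and 10.41. Of 9 chains used by the common gamma cytokines and IL-13, 3 rose and 2 fell (median 0.09). Il7r rose by 3.68 and the IL-13 receptor chain Il13ra1 by 2.85, while Il21r fell by 1.38 and Il4ra, which feeds STAT6, fell by 0.55. Il13ra1 had an M(CSF1) mean of 3.46, near the olfactory receptor level.

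Of 11 chains of the IL-6 and IL-12 families, 2 rose and 3 fell (median 0.04). Il6st, which encodes the shared chain gp130, rose by 2.28 and Il12rb2, an IL-12 chain, by 1.38, while Csf3r fell by 1.57 and Il6ra fell by 1.21. Il12rb2 had an M(CSF1) mean of 3.78, near the olfactory receptor level. Of 10 interferon and IL-10 family chains, 4 rose and 1 fell (median 0.11). The type I interferon chains Ifnar2 and Ifnar1 rose by 0.64 and 0.47. Ifngr1 fell by 0.57 (limma adjusted p = 0.00982), a call that ended without M(CSF1) replicate 1 (-0.54, adjusted p = 0.0525) or replicate 2 (-0.54, adjusted p = 0.0555). Epor and Ghr, the 2 measured receptors that use JAK2 as a homodimer, were not called, at -0.26 and -0.01, and Ghr lay at or below the olfactory receptor level on all arrays.

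Regulators and adaptors of the pathway had 6 of 27 higher and 9 lower (median -0.07). The feedback inhibitors Socs2 and Cish rose by 4.70 and 4.61, from M(CSF1) means of 3.65 and 3.90, near the olfactory receptor level. With the mean of its probe sets in place of the brightest, Socs2 rose by 3.05. Pias1, which restrains STATs in the nucleus, fell by 1.22, and the phosphatase Ptpn6 (SHP-1) fell by 0.93.

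Genes known as targets were grouped by the STAT they are best known for, and some stand in several groups. The groups do not part genes that a STAT raises from genes that it lowers. Of 19 STAT5 targets, 10 were higher and 4 lower (median 0.54). Next to Socs2 and Cish, which rose, the kinase gene Pim2 fell by 2.25 and the repressor Bcl6 fell by 1.86. Of 22 STAT6 targets, 16 were higher and 1 lower (median 1.77), led by the chemokine Ccl17 with a rise of 8.46 and the checkpoint ligand Pdcd1lg2 with 6.03, and with Pparg lower by a difference of -0.75. Of 22 STAT3 targets, 9 were higher and 9 lower (median 0.31). The protease inhibitor Timp1 rose by 4.12 and the growth factor Vegfa by 3.42, Fgl2, a secreted and membrane-bound protein of immune cells, fell by 5.42, and the survivin gene Birc5 fell by 2.10. In M(CSF1), Ccl17, Pdcd1lg2 and Timp1 had means of 3.86, 3.67 and 3.92, near the olfactory receptor level, as was Birc5 in M(CSF2), at 3.67.

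Of 23 interferon genes that depend on STAT2, 2 were higher and 6 lower (median -0.43). Oas2 fell by 1.97 and Rtp4 fell by 1.00, and Oasl2 rose by 0.94. Oas3 gave 0.67 (adjusted p = 0.0413), and leaving out any 1 array except M(CSF1) replicate 1 ended that call, at differences from 0.53 to 0.73 and adjusted p from 0.0917 to 0.166. Of 13 genes linked to STAT4, 3 were higher and 0 lower (median 0.21), a share called of 23.1%. Another 6 of the 13 lay at or below the olfactory receptor level on all arrays. The protease Furin rose by 2.60, beside Il12rb2. A called target was not traced to any STAT, since each of these genes answers to other factors as well.

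**Figure D4:**
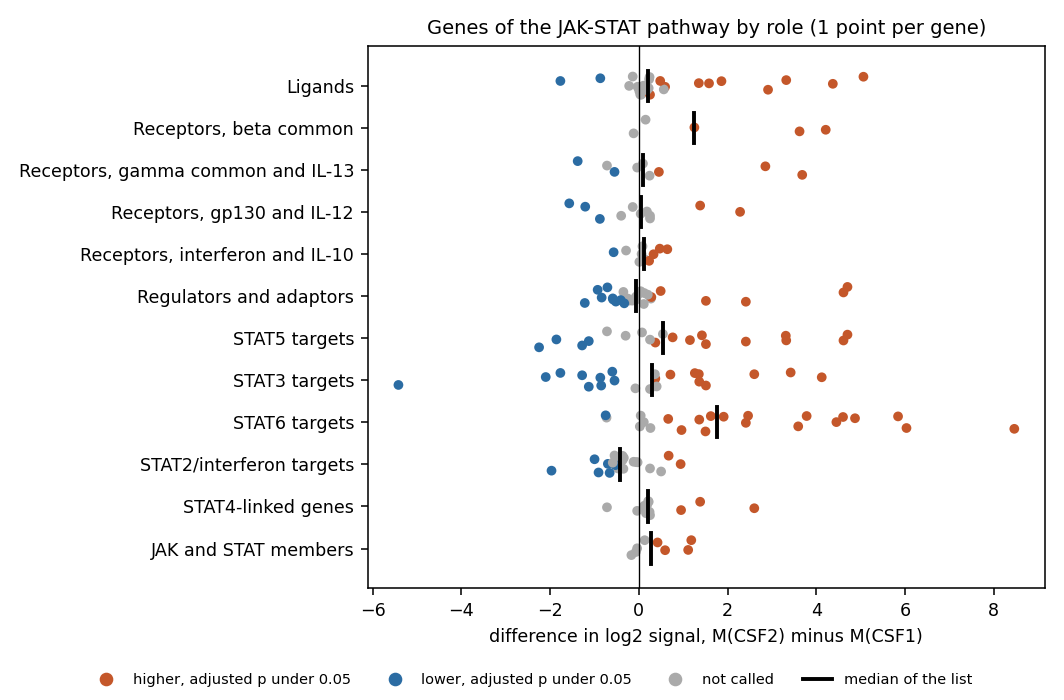
Difference in log2 signal, M(CSF2) minus M(CSF1) (horizontal axis), of each measured gene of the pathway, by role (rows). Colours show the limma call and black lines the median of each list. STAT6 targets lie mostly to the right of 0, with a median of 1.77, and STAT3 targets split 9 against 9.

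Markers of other cells that a marrow culture can hold are given because Jak3, Stat4 and Stat5 are also used by lymphocytes and granulocytes. Of 16 T and NK cell markers 2 rose and 1 fell, and their mean log2 signal was 3.30 to 3.41 on the M(CSF1) arrays and 3.34 to 3.42 on the M(CSF2) arrays, with Cd5 at 4.36 and 4.74, Bcl11b at 4.22 and 4.32, and 7 of them, Cd3d, Cd3g, Ncr1, Klrd1, Nkg7, Gzma and Eomes, at or below the olfactory receptor level on all arrays. The rise of Cd5, 0.38 (limma adjusted p = 0.0377), was not called after centring (adjusted p = 0.0659), with the replicate block (adjusted p = 0.077), or without M(CSF1) replicate 1 or 3 or M(CSF2) replicate 1 or 3 (adjusted p from 0.111 to 0.141). For 9 B and plasma cell markers, of which 0 rose and 1 fell, it was 3.65 to 3.85 and 3.42 to 3.53, with Ebf1, Vpreb3, Jchain and Cr2 at or below that level. Cd79b fell by 2.20, and Pax5 gave 4.20 and 4.22.

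For 5 further kinds of cell the mean over the marker list was higher in M(CSF2), as Jak2, Stat5a and Stat6 were, with most of the rise in a few genes. The median differences of the lists were 0.07 for neutrophil, 0.19 for mast cell and basophil, 0.18 for dendritic cell, 0.04 for erythroid and megakaryocyte and 0.20 for stromal and endothelial markers. The shares called were 35.7%, 33.3%, 33.3% and 42.9% for the first 4 lists and 6 of 12 for the last, beside 27.5% of all genes, and the called genes Ltf, Mcpt8 and Clec9a lay at or below the olfactory receptor level on all arrays. The mean of 14 neutrophil markers was 4.61 to 4.75 in M(CSF1) and 5.10 to 5.30 in M(CSF2), with 4 higher and 1 lower, and Ly6g, Ngp, Ltf, Cxcr2 and Retnlg at or below the olfactory receptor level on all arrays. The 2 brightest, Lcn2 and Mmp8, rose by 1.26 and 4.44, and Csf3r was the 1 that fell. For 12 mast cell and basophil markers the mean was 3.11 to 3.30 and 3.93 to 3.99, with 4 higher and 0 lower and with Cpa3, Mcpt4, Mcpt8, Cma1, Ms4a2, Fcer1a and Il4 at or below that level. The 2 brightest, Hdc and Gata2, rose by 4.43 and 2.52, from M(CSF1) means of 3.85 and 4.54. The 12 dendritic cell markers gave 4.16 to 4.19 and 4.91 to 5.02, with 3 higher and 1 lower, Itgax (CD11c) higher by 5.05, and Xcr1, Clec9a and Kmo at or below that level. Ccr7 rose from 5.17 to 9.10, Bst2 fell by 0.53, and Zbtb46, Flt3, Cd209a and Batf3 were among those not called. The 7 erythroid and megakaryocyte markers gave 4.44 to 4.63 and 5.30 to 5.35, with 2 higher, 1 lower, Pf4 higher by 3.63, and Klf1 and Alas2 at or below that level. Ppbp rose by 2.42 and Gp9 fell by 0.50. The 12 stromal and endothelial markers, with 4 higher and 2 lower, gave 4.44 to 4.56 and 4.86 to 4.96, and Cxcl12 and Lum were at or below that level. Of the 2 brightest, Kdr rose by 3.53 and Pecam1 fell by 0.79, a call that ended without M(CSF1) replicate 1 or 2. Among the others called, Dcn rose from 3.58 to 6.88 and Postn fell from 6.38 to 3.47. The part of these kinds of cell in the differences of the members was not tested.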

How the data were processed

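The deposited table holds the authors' processed log2 values, 1 column per array, for 28941 probe sets. The submitters' processing notes name MAS5. The sources used here give no further detail of background correction, normalization or summarisation. No source states the scale: values between 1.48 and 13.27 are too high for base 10 or base e, so base 2 was taken.

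Gene names came from the platform annotation, and symbols were updated by Entrez identifier in RefSeq (GRCm38.p6). Of the probe sets, 21789 had 1 gene, 1621 several and 5531 none. The probe set with the highest mean stood for each of 19938 genes, with no filter on dim genes. M(CSF2) minus M(CSF1) was tested on 2 sides with lmFit and eBayes of limma 3.58.1 (R 4.3.3) and Benjamini-Hochberg adjustment, after a test on simulated data. Every adjusted p of a gene comes from this fit, and that of the Jak3 and Insl3 probe set from a fit over all probe sets, a choice made after the data were examined. The number of arrays limits the precision. Exact permutation tests used scipy 1.17.1.

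The members, gene lists and tests were chosen with earlier results of these data known. Named genes were all members, up to 2 called genes in each direction per pathway list, the receptors of the inducers, up to 2 bright genes per marker list and the 3 genes nearest to Jak2 in profile; further genes were chosen after their values were seen. Genes on shared probe sets only, such as Il2rg, were not measured. Alternatives were other scalings, filters on dim genes, other uses of a gene's probe sets, other variance models, a block for the replicate number, and fits without 1 array.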

Additional observations from a re-analysis of the deposited data

How the results depend on the processing

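The number of members called was 4 and fell to 3 after centring on array medians, with the replicate number as a block, and on leaving out 1 array in 5 of 6 cases, where it ranged from 3 to 4. The gene lost was Stat5b each time. The number of genes called over all genes was 5488 and ranged from 4254 to 5490 with an array left out and from 5072 with the replicate block to 5849 after quantile normalization in the other fits over genes. Testing each single-gene probe set alone called 6096 of 21789 probe sets, a count of probe sets and not of genes. With the replicate block the difference of Stat5a minus that of Stat5b was 0.69 as well. Its exact permutation p of 0.25 was the smallest that 3 blocks allow. After quantile normalization that difference was 0.68 (exact permutation p = 0.1, again the smallest possible). The deviations of same-numbered arrays from their group means correlated at -0.009, -0.031 and -0.244, so the numbers were not taken to pair the samples. Jak2, Stat5a and Stat6 kept their direction and call under all 15 alternatives, and Stat2, Stat3 and Stat4 were called under none. The sign of Jak1 turned after quantile normalization (0.03) and without M(CSF2) replicate 2 (0.09), with a range of -0.17 to 0.09 on leaving out 1 array, and that of Pax5 after quantile normalization and after centring (-0.02 each) and without M(CSF1) replicate 2 (-0.0041) or M(CSF2) replicate 1 (-0.12), with a range of -0.12 to 0.13. Neither gene was called in any fit. Leaving out genes below the median signal removed Stat4 from the test. Dim signals limit what can be said of Stat4 and of any gene near the olfactory receptor level.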
